A study of Mus musculus with 2 samples.

Results

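The 7 genes Gm8300, Gm4027, Gm2016, Gm2035, Gm8332, Gm5662 and Gm5039 are neighbouring copies of 1 gene family on mouse chromosome 12, known as transcripts of the 2-cell embryo. They were found by matching their symbols in GENCODE M21 to the Ensembl identifiers of the count tables, and all 7 had a row among 43629 genes. They were selected on their counts in these same libraries, where all 7 were higher in one of them, so their levels and the difference between the libraries are a description, with no test. The samples were 2 libraries of polyadenylated RNA from mouse embryonic stem (ES) cells, named A and B, with 27872396 and 30327146 counts. Both carried the genotype Dgcr8 knockout, made with paired CRISPR/Cas9 cuts, on a 129/Ola background, from blastocyst, at passage 7. Dgcr8 is the RNA-binding partner of Drosha in the complex that cuts primary microRNA transcripts. No wild-type library was analysed here, so nothing below measures an effect of the knockout. Whether A and B came from separate cultures is not in the labels, and their spread may be technical.

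The 2-cell stage is when the mouse embryo first switches on its own genome. Many genes that turn on then lie beside, or start within, retroviral repeats, and several form families of near-identical copies. In ES cell cultures a small share of cells passes at times through a 2-cell-like state with the same transcripts. Eif1a and Eif1ax, the relatives of these 7 genes outside the cluster, encode translation initiation factor eIF1A, which helps the small ribosomal subunit scan a message for its start codon.

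All 7 genes are annotated as protein coding in GENCODE M21 on GRCm38, and each has an open reading frame of 435 bases with its stop codon, or 144 codons without it. On the plus strand lie Gm8300 (ENSMUSG00000079034, chromosome 12, 87514316 to 87518266), Gm4027 (ENSMUSG00000092019, 87618869 to 87622955) and Gm2016 (ENSMUSG00000072905, 87874072 to 87877859). On the minus strand lie Gm2035 (ENSMUSG00000096619, 87919423 to 87919857), Gm8332 (ENSMUSG00000095799, 88249666 to 88250100), Gm5662 (ENSMUSG00000079029, 88270640 to 88274500) and Gm5039 (ENSMUSG00000093847, 88320122 to 88324026). None of the 7 overlaps another annotated gene, on either strand. Gm8300, Gm4027, Gm2016, Gm5662 and Gm5039 share 1 layout: a first exon of 186 to 191 bases, an intron of 2021 to 2237 bases, and a second exon that holds the whole reading frame. Their transcripts are 1766 to 1873 bases long. Gm2035 and Gm8332 are annotated only as their 435 coding bases, with no exon beyond them. RefSeq lists Gm2035 and Gm8332 as pseudogenes with longer loci (87913563 to 87922443 and 88248738 to 88252870) and Gm5039 as a transcribed pseudogene, so the annotations differ in which copies they call coding.

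The coding sequences are almost the same. Of 435 coding positions 412 carry the same base in all 7 genes and 23 vary. Bases 361 to 420 of the reading frame, near its end, are shown because this stretch holds 7 of the variable positions. Among 60-base windows that begin at a codon and have no run of 30 bases found in Eif1a transcripts, no other holds more. Capitals mark a base that differs from the commonest base of the 7 at that position. Each is written 5′ to 3′ on the gene's own strand.
Gm8300: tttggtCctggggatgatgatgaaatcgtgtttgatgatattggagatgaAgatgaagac
Gm8332: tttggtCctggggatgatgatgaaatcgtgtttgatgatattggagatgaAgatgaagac
Gm2035: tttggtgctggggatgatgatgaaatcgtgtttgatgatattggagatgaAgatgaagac
Gm2016: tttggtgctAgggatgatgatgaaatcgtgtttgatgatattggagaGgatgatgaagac
Gm5662: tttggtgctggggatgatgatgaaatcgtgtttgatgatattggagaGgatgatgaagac
Gm4027: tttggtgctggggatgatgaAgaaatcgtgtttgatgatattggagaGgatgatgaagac
Gm5039: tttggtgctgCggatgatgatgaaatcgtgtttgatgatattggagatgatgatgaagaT
These stretches lie on GRCm38 chromosome 12, for example at 87517257 to 87517316 in Gm8300 and at 88321062 to 88321121 in Gm5039. Gm8300 and Gm8332 do not differ in this stretch, and no gene has more than 2 capitals.

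Over the whole reading frame, Gm8300 and Gm8332 were the closest pair, with 2 differences (99.5% identity). Gm2016 and Gm5662 came next, with 4 differences (99.1%). The farthest pairs were Gm5039 with Gm4027 and Gm5039 with Gm5662, at 13 differences each (97.0%). Gm8300, on the plus strand, and Gm8332, on the minus strand, start 735 kb apart, so the closest coding sequences are not those of neighbours. Every member was nearer to Eif1a (93.6% to 94.9% identity) than to Eif1ax (83.7% to 85.1%). At 17 coding positions all 7 shared a base that Eif1a lacks. Identity fell outside the reading frame. Whole transcripts of the 5 genes with 2 exons were 86.7% to 95.3% identical, the highest value again for Gm2016 with Gm5662.

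**Figure D1:**
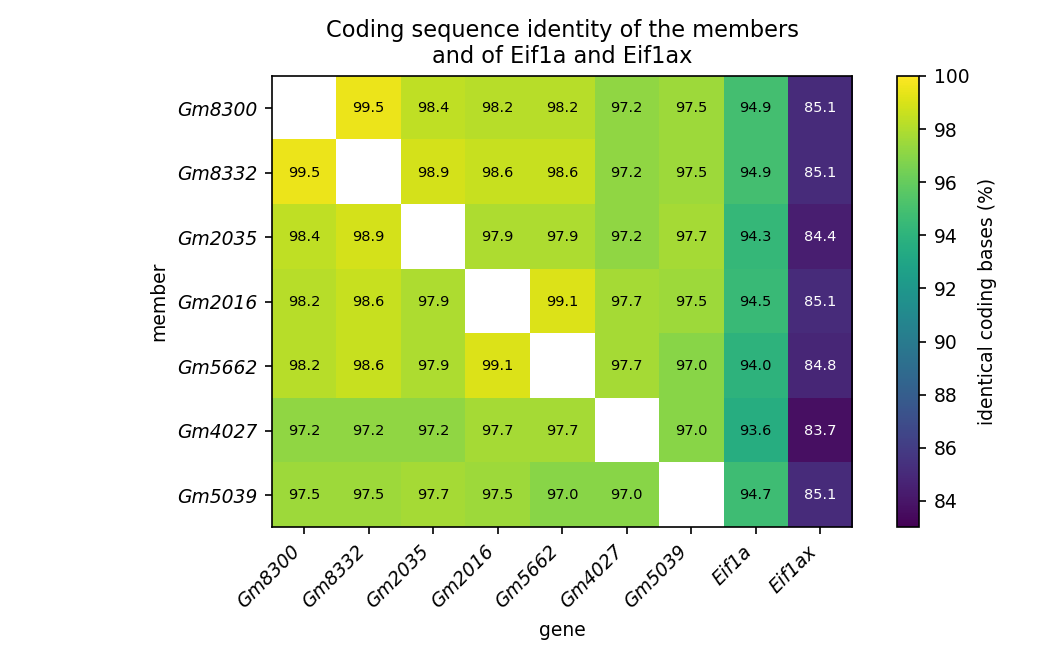
Coding sequence identity in percent of 435 aligned bases (colour and printed value) for each pair of the 7 members, and of each member with Eif1a and Eif1ax. Pairs of members lie at 97.0% to 99.5%, above every value with Eif1a (at most 94.9%) and with Eif1ax (at most 85.1%).

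GENCODE M21 holds 16 protein-coding genes on chromosome 12 whose reading frame has this length and at least 60% identity to a member, that is the 7 members and 9 more. Of these 9, 5 had a row of counts, and Gm2022, Gm5788, Gm21936 and Gm16368 had none. BB287469 has the same coding sequence as Gm4027, with 100% identity.

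How far a read can be assigned to 1 copy was measured by cutting each transcript into overlapping words of 50 bases. A word was counted as a gene's own where no transcript of another gene held it on either strand. Gm5039 had 82.7% of its words to itself and Gm8300 73.4%. Gm2035 had 23.6%, Gm5662 22.1% and Gm2016 18.7%, and Gm2016 shared 1291 of its 1717 words with Gm5662. Gm4027 had 5.6%, since 1700 of its 1801 words recur in BB287469. Gm8332 had 0 own words: all 386 recur in other members, 286 of them in Gm8300. With words of 100 bases the own share of Gm2035 rose to 54.5%, while Gm8332 stayed at 0%. Outside the cluster, Eif1a was the single gene to share 50-base words with any member, from 27 words with Gm8332 to 68 with Gm5039. How the authors counted a read with several matches is not stated in the labels. Counts of single copies are therefore uncertain, above all those of Gm8332 and Gm4027. The sum over the copies depends less on how reads were divided among them. It too would lack any reads left out for having several matches, and this was not measured. Genome sequence outside annotated transcripts was not searched, and the annotation describes a reference strain other than 129/Ola, whose copy number here was not measured.

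**Figure D2:**
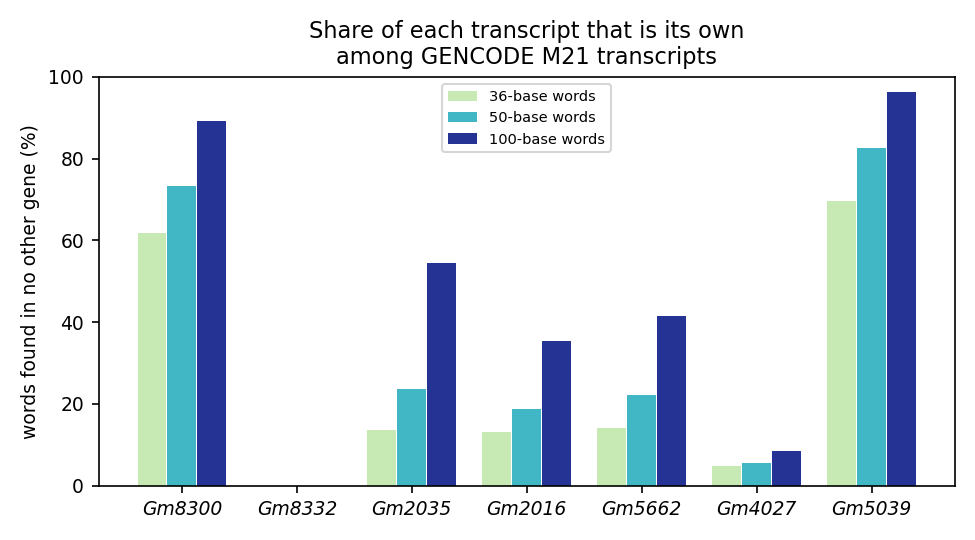
Share of each transcript's words of 36, 50 and 100 bases (bars, in percent) found in no transcript of another gene in GENCODE M21. Gm5039 and Gm8300 stand highest at all 3 word lengths, Gm4027 stays between 4.8% and 8.6%, and Gm8332 has none.

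Levels are given as CPM (counts per 1000000 of a library's total) with the exact 95% Poisson interval. Such intervals cover counting error only, since PCR copies of a molecule were not told apart. A mean is followed by ± its SD between A and B. Gm5662 had the most counts of the 7, 263 in A and 39 in B, or 9.44 CPM (8.33 to 10.7) and 1.29 CPM (0.914 to 1.76). Its mean was 5.36 ± 5.76 CPM (n = 2). Gm8300 had 205 and 34 counts, or 7.35 CPM (6.38 to 8.43) in A and 1.12 (0.776 to 1.57) in B, with a mean of 4.24 ± 4.41 CPM. These were the 2 members at 1 CPM or more in both libraries. For each of them A was high and B low, and the intervals of A and B did not overlap.

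Gm8332, the copy with no words of its own, had 136 counts in A and 12 in B, or 4.88 CPM (4.09 to 5.77) and 0.396 CPM (0.204 to 0.691). Gm2016 had 131 and 25 counts, or 4.70 CPM (3.93 to 5.58) and 0.824 CPM (0.533 to 1.22). Gm5039 had 86 and 7 counts, or 3.09 CPM (2.47 to 3.81) and 0.231 CPM (0.0928 to 0.476). In A these 3 genes lay between 3 and 5 CPM, and in B each lay under 1 CPM.

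Gm4027 and Gm2035 were the lowest. Gm4027 had 36 counts in A and 2 in B, or 1.29 CPM (0.905 to 1.79) and 0.0659 CPM (0.00799 to 0.238). Gm2035 had 29 and 5 counts, or 1.04 CPM (0.697 to 1.49) and 0.165 CPM (0.0535 to 0.385). Both passed 1 CPM in A with an interval that reached below it. In bulk RNA, fewer cells that express these genes and less RNA in each such cell cannot be told apart.

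**Figure D3:**
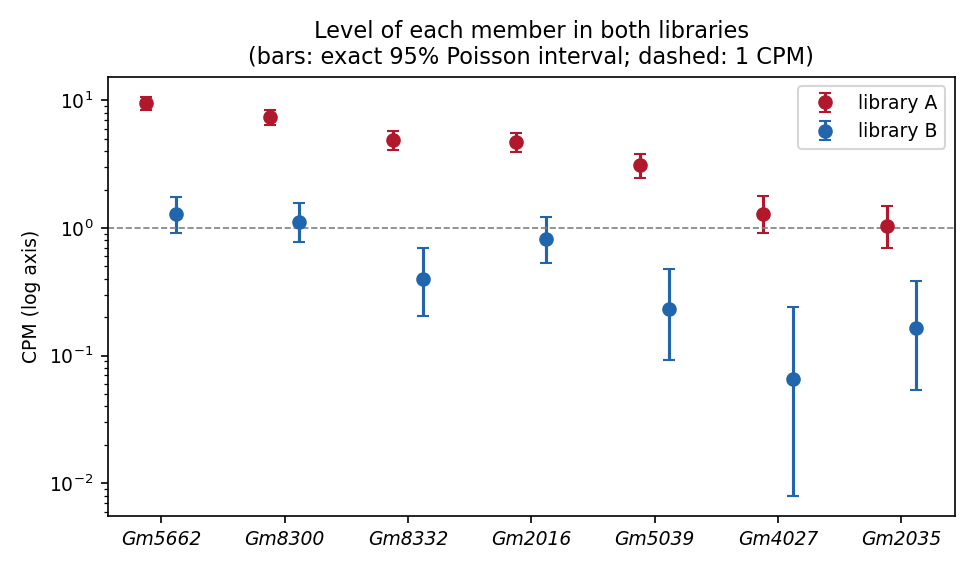
CPM (log axis) of each member in library A (red) and library B (blue), with exact 95% Poisson intervals as bars and 1 CPM as the dashed line. All 7 members lie at 1 CPM or more in A, 2 of them do so in B, and no interval of A overlaps that of B for the same gene.

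Together the 7 genes held 886 counts in A and 124 in B, a summed level of 31.8 CPM (29.7 to 34.0) and 4.09 CPM (3.40 to 4.88). The mean of the sum was 17.9 ± 19.6 CPM, with an SD larger than the mean. Among 23698 genes with a count in either library, the 7 lay between percentiles 40.6 and 58.8 in A and between 15.7 and 43.7 in B. Gm5662 made up 29.7% of the summed counts in A and 31.5% in B, and Gm8300 made up 23.1% and 27.4%. The share of Gm8332 was 15.3% in A and 9.68% in B.

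Levels of different copies were compared per kilobase of the longest annotated transcript, as RPKM. The order from highest to lowest was the same in both libraries: Gm8332, Gm5662, Gm8300, Gm2016, Gm2035, Gm5039 and Gm4027. Gm8332 reached 11.2 RPKM (9.41 to 13.3) in A and 0.910 (0.470 to 1.59) in B. Gm5662 reached 5.13 (4.53 to 5.79) and 0.699 (0.497 to 0.955), and Gm4027, the lowest, 0.698 (0.489 to 0.967) and 0.0356 (0.00432 to 0.129). In A, the intervals of the neighbours Gm2016 and Gm2035 overlapped, as did those of Gm2035 and Gm5039. In B, the intervals of the first 5 genes overlapped one another. Against the spread between the libraries no neighbours in this order stood apart: the SD over A and B was close to the mean for each gene, for example 6.06 ± 7.29 RPKM for Gm8332 and 2.91 ± 3.13 for Gm5662. The place of Gm8332 and of Gm2035 rests on an annotated length of 435 bases, which is shorter than the RefSeq loci.

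Both libraries were then set side by side on one scale, with library sizes adjusted by TMM, a scaling that aligns the bulk of genes between libraries. Ratios of A over B were 6.10 (exact 95% interval 4.23 to 9.05) for Gm8300 and 6.83 (4.86 to 9.82) for Gm5662. They were 5.30 (3.44 to 8.50) for Gm2016 and 5.87 (2.25 to 19.4) for Gm2035. The highest were 11.5 (6.36 to 22.8) for Gm8332, 12.4 (5.78 to 31.9) for Gm5039 and 18.2 (4.69 to 156) for Gm4027, which rests on 2 counts in B. For the sum of all 7 the ratio was 7.23 (5.99 to 8.80). This value lay inside the counting interval of every single member. The copies differed more in level, 9.07-fold between highest and lowest CPM in A, than in ratio, 5.30 to 18.2.

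Differences of log2(TMM-scaled CPM + 0.5) were also taken, a scale that understates the difference of low genes. For A over B they ran from 1.16 for Gm2035 to 2.52 for Gm8332, with a median of 2.19. All 7 were at least 2-fold higher in A (a difference of at least 1), and 6 were with a pseudocount of 1 CPM, which left out Gm2035. The background was 1047 of the 14583 genes that reached 1 CPM in A or in B (7.18%), with a median difference of 0.00. It was 4.6% of genes with any count, where all 7 members passed, and 6.92% of genes that reached 2 CPM, where 5 members passed. Since Gm4027, Gm2016, Gm2035, Gm8332 and Gm5039 reached 1 CPM through A alone, that filter in part set their direction. Of all 770 genes at 1 CPM or more in A and under it in B, 294 were at least 2-fold higher in A (38.2%). The members were proposed with this difference known, and nothing is read from these shares.

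**Figure D4:**
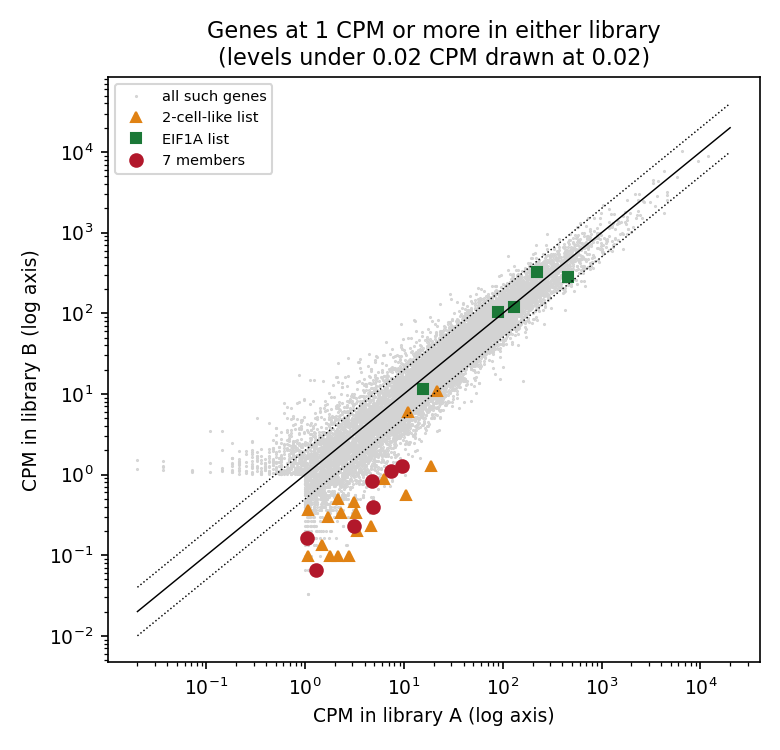
CPM in library A (horizontal log axis) and in library B (vertical log axis) for the 14583 genes that reached 1 CPM, with the lines of equal CPM (solid) and of 2-fold difference (dotted). The 7 members (red circles) all lie below the lower dotted line, with most of the 2-cell-like list (orange triangles), while the 5 genes of the EIF1A list (green squares) lie between the dotted lines.

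Genes with transcripts of like base composition, and genes of like level, were set beside the members. The members' transcripts hold 37.1% to 39.1% G and C. Of 360 other genes at 1 CPM or more with transcripts in that range, 0 were at least 2-fold higher in A and 72 were at least 2-fold higher in B (20.0%), with a median difference of -0.54. Of 3655 genes with a mean CPM between those of the lowest and the highest member, 523 were at least 2-fold higher in A (14.3%), 324 were at least 2-fold higher in B (8.86%), and the median was 0.23. The part of base composition in the members' values was not tested.

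The other coding copies of the cluster held few counts. Gm2056 had 27 counts in A and 3 in B, or 0.969 and 0.0989 CPM, with a ratio of 9.11 (2.80 to 46.9). Gm2075 had 9 and 0 counts. Against a floor of 3 counts in B, the number that a count of 0 allows (0.0989 CPM), it was at least 3.04-fold higher in A, while the exact 95% interval of its ratio starts at 1.998. Gm6803 had 4 and 1 counts. Gm21319 and BB287469, named after their values were seen, had 3 and 1 counts and 1 and 0 counts. BB287469 thus held 1 count in all while its near copy Gm4027 held 38 over both libraries. The 5 copies together had 44 counts in A and 5 in B, with a ratio of 8.91 (3.54 to 28.8).

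Genes around the cluster were set beside it. Between 87 and 89 Mb of chromosome 12, 37 of 121 annotated genes had a row and 20 reached 1 CPM in A or B, the 7 members among them. Of the 13 others, 1 was at least 2-fold higher in A (background 7.18%) and 0 were at least 2-fold higher in B (background 6.8%). Both counts are near the background, and the median difference was -0.08. Snw1, a splicing factor gene and the nearest expressed gene on the lower side, had 4922 and 5281 counts, or 176.6 and 174.1 CPM. Adck1, on the upper side, had 679 and 586 counts, or 24.4 and 19.3 CPM. The gene that passed 2-fold was Ism2, chosen here after its values were seen, with 67 and 18 counts. Oog1, an oocyte gene that lies between Gm8300 and Gm4027, had 0 counts in both. Of the predicted genes in the window that are not coding copies, the highest stayed low, with 11 and 6 counts for Gm8587, 2 and 9 for Gm26764 and 6 and 1 for Gm15745.

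**Figure D5:**
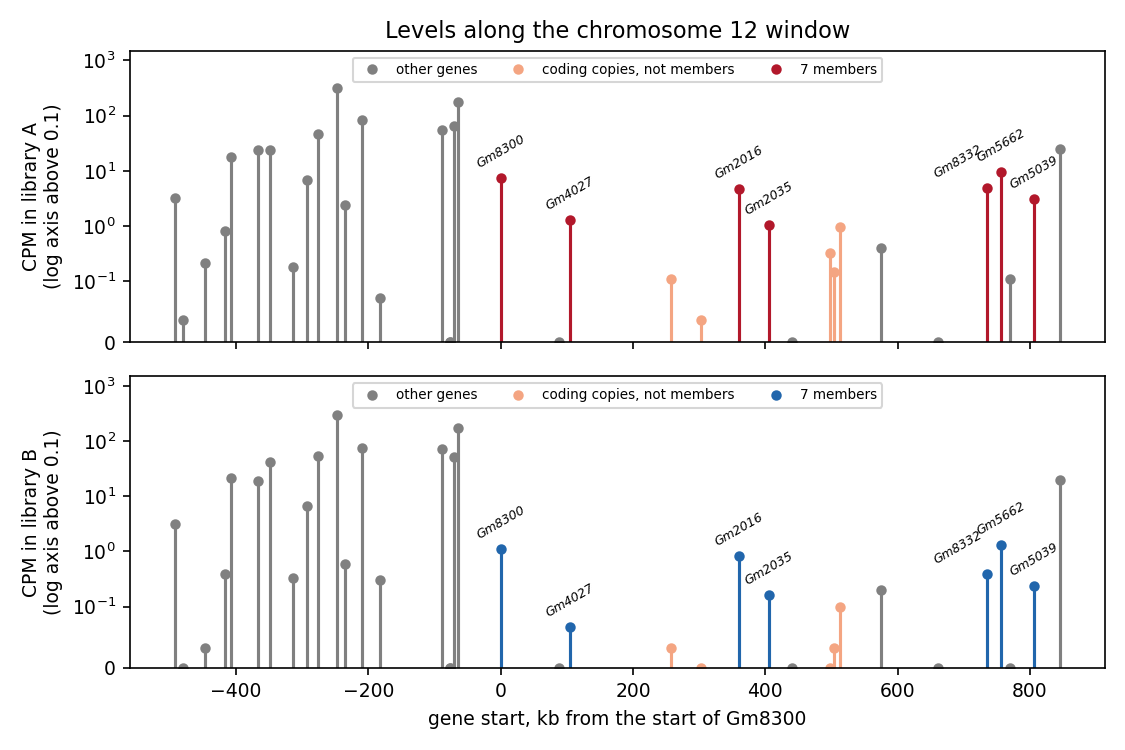
CPM (log axis above 0.1 CPM) of each gene with a row between 87 and 89 Mb of chromosome 12, against the distance of its start from that of Gm8300 in kb, in library A (top) and B (bottom). The 7 members (coloured) fall from 1.04 to 9.44 CPM in A to 0.0659 to 1.29 CPM in B, while the flanking genes Snw1 and Adck1 (grey, at the edges of the cluster) stay near the same height.

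The eIF1A and eIF1 genes outside the cluster were more abundant per length than the members in both libraries and differed less between them. Eif1a, on chromosome 18, had 6163 counts in A and 9740 in B, or 221.1 and 321.2 CPM, with a ratio of 0.641 (0.620 to 0.661). Eif1ax, the X-linked gene, had 3648 and 3610 counts, or 130.9 and 119.0 CPM, with a ratio of 1.02 (0.977 to 1.07). Per length, Eif1a lay at 94.6 RPKM and Eif1ax at 24.2 RPKM over both libraries, against 6.06 RPKM for the highest member. Eif1ad, an eIF1A domain gene, lay at 96.7 ± 10.1 CPM, with a ratio of 0.802 (0.761 to 0.845). Eif1 and Eif1b, which encode the start-codon fidelity factor eIF1 and its relative, lay at 368.7 ± 121.7 and 13.6 ± 2.93 CPM. Both were higher in A, with ratios of 1.497 (1.46 to 1.54) for Eif1 and 1.26 (1.10 to 1.46) for Eif1b. Of these 5 genes 0 passed 2-fold in either direction (background 7.18% higher in A and 6.8% higher in B). Among so few genes a count of 0 is near those shares. Eif1a is the one gene elsewhere that shares 50-base words with the members. The part of reads that match both Eif1a and a member was not tested.

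Other genes of the 2-cell-like state were followed through a list of 38 symbols, written with earlier results of these data known. Of the 38, Zscan4a, Gm2022 and Gm16367 had no row. Of the 35 with a row, 18 reached 1 CPM in A or B, all 18 in A and 3 in B. Of these 18, 15 were at least 2-fold higher in A (background 7.18%), 0 were at least 2-fold higher in B, and the median difference was 1.86. In all, 31 of the 35 had a count, and all 31 were higher in A by TMM-scaled CPM, where 51.3% of all genes with a count were. Since 15 of the 18 reached 1 CPM through A alone, the filter in part set this direction too.

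The 6 of highest mean CPM on that list were Ddit4l, Gm21761, Zfp750, Zscan4c, Zscan4d and Gm20767. Ddit4l, a gene for an inhibitor of mTOR signalling, had 594 counts in A and 328 in B, and Zfp750, a zinc finger gene of the epidermis, 303 and 183, so neither passed 2-fold. Gm21761 had 525 and 39 counts, with a ratio of 13.6 (9.84 to 19.4). Zscan4c, of the family that guards telomeres in ES cells, had 295 and 17 counts, with a ratio of 17.6 (10.8 to 30.6), and Zscan4d had 173 and 27, with a ratio of 6.49 (4.31 to 10.1). Gm20767 had 129 and 7 counts, with a ratio of 18.7 (8.80 to 47.3). The members' ratios of 5.30 to 18.2 overlapped those of these last 4 genes, 6.49 to 18.7. These multicopy families also share sequence among their own copies, which was not measured here.

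Known regulators of the 2-cell-like state were measured beside them. Dppa2 and Dppa4, which act upstream of the 2-cell activator Dux, lay at 121.5 ± 13.1 and 136.1 ± 4.71 CPM, with ratios of 0.799 and 0.886. Dux itself had no row. The 8 listed repressors had a median difference of -0.29, and each passed 1 CPM in A and in B. Of these, 1 was at least 2-fold higher in B (background 6.8%): Rif1, a chromatin and replication timing factor, at 215.6 CPM in A and 695.8 in B, with a ratio of 0.288 (0.280 to 0.297). The chromatin assembly genes Chaf1a and Chaf1b had ratios of 0.902 and 1.21, and the corepressor gene Trim28 had 0.989. Kdm1a, a histone demethylase, had a ratio of 0.970 and Ehmt2, a histone methyltransferase, 0.739. Smchd1 and Pcgf6, the latter of a variant Polycomb complex, had 0.638 and 0.721. With 2 libraries of 1 group, no relation between a regulator and the members can be tested.

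The 1 member with a promoter in the RefSeq table (GRCm38.p6) is Gm4027. Its upstream sequence is shown because a TATATA motif, the only motif searched for, lies 31 bases before the GENCODE start. Capitals mark the run of TATATA letters in the 210 bases at chr12:87618659-87618868, plus strand, which end just before that start. RefSeq begins the Gm4027 locus farther upstream, at 87617797, so this stretch lies inside the RefSeq locus.
Gm4027: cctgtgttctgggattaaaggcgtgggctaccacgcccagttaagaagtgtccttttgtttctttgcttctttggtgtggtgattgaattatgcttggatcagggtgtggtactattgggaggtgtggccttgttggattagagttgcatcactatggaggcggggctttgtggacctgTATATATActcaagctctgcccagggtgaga
The letters TATATA read the same on both strands, and 1863 of 32851 RefSeq promoter windows hold them (5.7%). Those windows were searched whole, not cut before a GENCODE start as the 210 bases were. That share counts the letters anywhere in the promoter, not at this distance from a start. The promoter of BB287469 was identical to that of Gm4027 over 209 bases around this run, with 0 differences. The coding copy Gm21319 has the run at a like distance, 30 bases before its start, with other letters beside it. Gm6803, the other coding copy in the RefSeq table that was searched, has no TATATA in its promoter window.
Gm4027: tttgtggacctgTATATATActcaagctct
BB287469: tttgtggacctgTATATATActcaagctct
Gm21319: tggaaaaaagaaTATATAttcaagctccgc
The match is a description of letters, not of a bound site, and its relation to the counts was not tested.

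As a check of the libraries, Dgcr8 held 1253 counts in A and 1942 in B, or 44.95 and 64.04 CPM. Counts per gene do not show which exons were read, so this does not check the genotype. All 8 ES cell markers passed 1 CPM in A and B, with summed levels of 9343 and 6151 CPM in A and B. Dppa5a, at 4252 and 1767 CPM, held the largest part of both sums and was 2.24-fold higher in A. Ratios of A over B were 1.41 for Sox2, 1.39 for Klf4, 1.17 for Nanog, 1.09 for Pou5f1 and 1.07 for Tdgf1. Esrrb and Zfp42 were lower in A, with ratios of 0.923 and 0.960. Of 6 fibroblast markers 4 reached 1 CPM in both (summed 47.9 and 30.1 CPM), and Thy1 held most of that sum (31.4 and 21.9 CPM). Pdgfrb was 2.76-fold, Col1a1 2.22-fold and Thy1 1.34-fold higher in A. Twist1 (78 and 91 counts in A and B), Col1a2 (2 and 7) and Col3a1 (1 and 5) were lower in A. Of 5 blood cell markers 3 reached 1 CPM in both (summed 26.8 and 31.1 CPM). Cd79a (110 and 49 counts in A and B) and Cd3e (223 and 167) were higher in A. Cd68 (412 and 720), Ptprc (1 and 5) and Lyz2 (0 and 1) were lower in A. Of 5 primitive endoderm markers (summed 8.79 and 10.7 CPM) 1 reached 1 CPM in both, Gata4. It had 198 counts in A and 149 in B and was higher in A, with a ratio of 1.35 (1.08 to 1.68). Sox17 (5 and 19 counts) and Foxa2 (2 and 14) were lower in A and stayed under 1 CPM. Gata6 (0.682 and 2.34 CPM) and Sox7 (0.753 and 2.41 CPM) were at least 2-fold higher in B, so the median difference of the 3 that reached 1 CPM in A or B was -1.29. Of 5 trophoblast markers 2 passed 1 CPM in A and B (summed 82.7 and 39.6 CPM), and Tfap2c, which made up most of that sum, was 2.13-fold higher in A. Eomes had 131 counts in A and 122 in B, while Cdx2 (23 and 38), Elf5 (2 and 6) and Gata3 (8 and 19) were lower in A. The part of other cell types in the members' values was not tested.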

How the data were processed

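Polyadenylated RNA of 2 ES cell libraries was sequenced. The authors deposited raw counts, 1 whole number per Ensembl gene and library, per the file headers. Named without a role are featureCounts 1.4.5-p1, the build mm10 and STAR 2.4.2a, per the submitters' processing notes. The labels call the libraries reverse-stranded. Not given in the sources used here are the annotation release, the strand setting and the treatment of reads with several matches.

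Names, positions and transcripts came from GENCODE M21 on GRCm38, the assembly mm10 denotes, and 42462 of 43629 identifiers matched (99.8% of counts in each library). CPM used library totals. TMM factors (edgeR 4.0.16, R 4.3.3) over all genes were 1.04 for A and 0.965 for B. Ratios have exact conditional 95% intervals (scipy 1.17.1). Differences are log2(TMM-scaled CPM + 0.5), A minus B, with 2-fold as the threshold among genes that reached 1 CPM in A or B. No test was run: there is 1 group, and the members, lists and rules were chosen with earlier results of these data known. The log2 ratio step was tested on simulated Poisson counts. Changed genes were drawn there only from levels above those of most members, so the step was not tested at the levels of those members.

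The genes named are the 7 members, Dgcr8, all genes of the eIF1A and regulator lists, and the 6 genes of highest mean CPM of the 2-cell-like list. Also named are up to 6 predicted genes of highest mean CPM in the chromosome 12 window, the nearest gene without sequence likeness on each side, and genes elsewhere that share 50-base words with a member. Whole transcripts were aligned with Biopython 1.88. Alternatives were other scalings (DESeq2 1.42.0 size factors, library totals), pseudocounts, filters, each library alone and other word lengths.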

Additional observations from a re-analysis of the deposited data

How the results depend on the processing

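With 2 libraries of 1 group, leaving one out leaves a single value. The summed level of the 7 genes then ranged from 4.09 to 31.8 CPM, and the number of members at 1 CPM or more from 2 (B alone) to 7 (A alone). In both libraries that number was 2, and it was 3 at a threshold of 0.5 CPM and 0 at 2 CPM. The summed log2 difference of 2.72 ranged from 2.60 (pseudocount of 1 CPM) to 2.83 (0.1 CPM), and was 2.70 with DESeq2 size factors and 2.81 without TMM, a change of scaling that shifts the median gene by 0.10. The number of members at least 2-fold higher in A was 5 among genes at 2 CPM or more, 6 with a pseudocount of 1 CPM and 7 under the other 4 alternatives. That of the 2-cell-like list ranged from 11 to 17. All 28 alternative values of single members' log2 differences kept their direction. These alternatives changed only the scaling or the pseudocount, and the direction was known when the members were chosen, so nothing is read from it. No paired analysis was possible because there is 1 group. The planned share of words found at 1 place in the genome was not run, since no genome sequence was used here. The share among annotated transcripts was chosen after seeing the data. Counts of 2 to 39 in B limit the precision of every ratio.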
